A study of Mus musculus with 42 samples.

Results

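The genes described here are 7 of the enzymes that spend NAD+ to attach ADP-ribose to proteins: Parp1, Parp3, Parp6, Parp11, Parp12, Parp16 and Tnks. They were chosen by name, as 7 PARP and tankyrase genes among the 15737 genes of the deposited expression table. Earlier results of these data were known when they were chosen. Tiparp and Zc3hav1, of the same family, also had rows and are described further below. All 7 had a row in the table, and 6 of them, all but Parp11, reached 1 FPKM per library (fragments scaled by exon length and by the mapped reads of the library) in at least 1 column. Mouse ICR embryos were collected at the early 2-cell stage 34 h, at the late 2-cell stage 48 h and at the 4-cell stage 58 h after the hCG injection that triggers ovulation. The controls of each stage are labelled untreated and wild type. The methods of the study name DMSO as the control of the inhibitors, and for the knockdown zygotes given scrambled siRNA with Trim21 mRNA. Which of these the control columns hold is not stated. Other embryos were given FK866 at 0.01 µM, which inhibits the NAD+-producing enzyme NAMPT, or FK866 together with NMN, the product of NAMPT, at 10 µM, each at the late 2-cell and the 4-cell stage. At the late 2-cell stage there were also embryos given the deacetylase inhibitor TSA at 10 nM, and embryos labelled Sirt1. By the methods of the study these had received Sirt1 siRNA, Trim21 mRNA and SIRT1 antibody as zygotes, so that the mRNA and the protein were both targeted. The inhibitors were dissolved in DMSO, and 3 whole embryos were pooled in each library, with 2 samples per group and 18 in all.

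Poly(ADP-ribose) polymerases take NAD+ apart, release nicotinamide and leave ADP-ribose on a target protein, and the nicotinamide is turned back into NAD+ through NAMPT and NMN. PARP1 and PARP3 are nuclear enzymes that are switched on by broken DNA, and PARP1 builds long branched chains. PARP6, PARP11, PARP12 and PARP16 add single ADP-ribose units. PARP12 is an interferon-inducible zinc finger protein of the Golgi and stress granules, PARP11 is found at the nuclear envelope, and PARP16 sits in the membrane of the endoplasmic reticulum. Tankyrase, the product of Tnks, builds chains on telomere, spindle and Wnt pathway proteins, among them axin, which is then degraded. In the mouse, the embryonic genome is switched on in a minor wave at the 1-cell to early 2-cell stage and a major wave at the late 2-cell stage, while maternal transcripts are cleared.

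The table held 1 FPKM column per group. Its values moved in steps of whole reads, and these steps showed that 7 of the 9 columns were sums over 2 libraries. In contrast, 1 library alone stood behind each of those headed 4-cell FK866 and 4-cell FK866+NMN. The 16 libraries had between 3169677 and 10003481 mapped reads, and 97.0% to 97.8% of the values above 0 could be separated into their libraries. The separated libraries are called A, the one with more reads, and B, and carry no replicate number. The names of 5 columns could not be taken at face value, because lists of genes published with the study point to other columns. All 84 genes listed for the 4-cell control had the values of the column headed late 2-cell TSA. All 84 listed for 4-cell FK866 had those of the column headed late 2-cell Sirt1, and all 84 listed for 4-cell FK866+NMN had those of the column headed 4-cell control. The directions listed for TSA matched the column headed 4-cell FK866 for 1203 of 1203 genes. Those listed for the Sirt1 embryos matched the column headed 4-cell FK866+NMN best, for 773 of 821 genes. Directions place a column less firmly than equal values. Those for TSA also matched the early 2-cell column for 1096 of 1203 genes, and those for the Sirt1 embryos the late 2-cell FK866 column for 703 of 821. The columns of the late 2-cell control, FK866 and FK866+NMN embryos kept their names under both readings, with 117, 118 and 117 of 118 values equal. The comparisons of the members are therefore given first by the headers and then by the lists, and a column is called by its header.

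Of the marker sums, that of the 2-cell stage moved with the same split. The summed level of the 7 listed markers of the 2-cell stage that had rows was 154 to 404 FPKM in 6 columns but 16.6, 27.5 and 44.4 FPKM in the columns headed late 2-cell TSA, late 2-cell Sirt1 and 4-cell control. Zp2, Zp3, Mos and Nlrp5, the 4 oocyte markers with rows, summed to between 32.0 and 181 FPKM. Singly, Zp2 (1.32 to 8.14 FPKM) and Nlrp5 (0.617 to 5.40 FPKM) were lowest in the same columns, against at least 12.1 and 21.5 FPKM elsewhere, whereas Zp3 and Mos did not follow this split. Markers of the later stages with rows (5 of 8) summed to 46.9 FPKM in the early 2-cell column and to between 158 and 306 FPKM elsewhere. Those of cumulus and granulosa cells (5 of 9) summed to at most 8.12 FPKM, with Foxl2 at 0 in 8 of the 9 columns. That highest sum was all Cyp19a1, the estrogen-making aromatase, in the column headed 4-cell FK866. Cyp19a1 was at 2.91 FPKM in that headed 4-cell FK866+NMN and at 0 in that headed 4-cell control. Sirt1, the target of the knockdown, was at 86.6 and 66.2 FPKM in the late 2-cell control libraries and at 32.4 and 73.1 FPKM in those of the column headed late 2-cell Sirt1 (adjusted p = 0.526, limma). It was at 11.3 FPKM in the column that the list of the Sirt1 embryos points to (log2 difference -2.64, adjusted p = 0.0961, limma). That low level was not particular to this column, since Sirt1 was at 7.61 FPKM in the column headed 4-cell FK866 (-3.16 from the late 2-cell control, adjusted p = 0.0104, limma) and at 9.84 FPKM in the early 2-cell column. In the columns headed late 2-cell TSA and 4-cell control it was at 69.6 and 72.0 FPKM. Nampt, the target of FK866, was not analysed here.

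Parp12 and Parp1 are the members with the widest swings, so the 250 bases before their RefSeq starts are shown first (GRCm38.p6; the Parp1 stretch is chr1:180568641-180568890 on the + strand and the Parp12 stretch chr6:39118350-39118599 on the - strand). Capitals mark matches, on either strand, to GGGCGG, the core of the GC box bound by SP factors.
Parp1: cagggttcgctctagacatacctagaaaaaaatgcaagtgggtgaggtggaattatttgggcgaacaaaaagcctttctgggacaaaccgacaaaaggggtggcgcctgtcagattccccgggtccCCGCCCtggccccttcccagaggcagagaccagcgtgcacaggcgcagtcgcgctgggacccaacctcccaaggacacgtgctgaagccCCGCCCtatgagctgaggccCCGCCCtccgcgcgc
Parp12: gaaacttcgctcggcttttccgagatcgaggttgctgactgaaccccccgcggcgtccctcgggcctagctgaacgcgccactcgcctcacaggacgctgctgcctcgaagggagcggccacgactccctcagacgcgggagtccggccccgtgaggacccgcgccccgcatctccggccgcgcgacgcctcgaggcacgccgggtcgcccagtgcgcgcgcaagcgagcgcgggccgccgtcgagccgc
The Parp1 stretch held 3 such matches and the Parp12 stretch 0, where 32.7% of the 32851 promoter stretches of the same length held at least 1. Neither held CCAAT (33.8% of all stretches) or TATAAA (12.4%), searched on both strands, which share no overlap with the GC box letters. Both were rich in CpG, with 16 sites before Parp1 and 41 before Parp12, the latter as many as or more than 99.1% of all stretches, against a median of 6. Of the other members, 4 had an entry and Tnks had none.

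Parp12 (chr6:39086410-39118349, - strand, GRCm38) was the most abundant of these transcripts in 6 of the 9 columns. It was at 147 and 126 FPKM in the early 2-cell libraries (3302 and 2333 reads) and at 141 and 250 FPKM in the late 2-cell control libraries (3672 and 4165 reads). With FK866 the late 2-cell libraries held 229 and 192 FPKM, and with FK866+NMN 285 and 184 FPKM. These 4 groups could not be told apart by their ranges, apart from early 2-cell libraries lying below those of both FK866 columns. In the single libraries headed 4-cell FK866 and 4-cell FK866+NMN, Parp12 was at 130 and 206 FPKM. In the remaining columns it was far lower, at 3.69 and 0.652 FPKM in that headed late 2-cell TSA (101 and 17 reads). It was at 17.6 and 8.92 FPKM in that headed late 2-cell Sirt1 and at 23.6 and 5.12 FPKM in that headed 4-cell control. Every one of these 6 libraries lay below the lowest of the other 10, and the libraries headed 4-cell control and late 2-cell Sirt1 overlapped each other.

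Parp1 (chr1:180568924-180601254, + strand) had the opposite order. Its level was 4.19 and 1.42 FPKM in the early 2-cell libraries, 5.65 and 3.95 FPKM in the late 2-cell controls and 5.86 and 1.53 FPKM with FK866. With FK866+NMN at the late 2-cell stage, 1 library had 0 reads of Parp1 and the other 1.52 FPKM (43 reads). These FK866+NMN libraries lay below those of the FK866 and control columns, and the other ranges overlapped. The single library headed 4-cell FK866+NMN had 1.48 FPKM, and that headed 4-cell FK866 had 0.282 FPKM from 7 reads. In the columns headed late 2-cell TSA, late 2-cell Sirt1 and 4-cell control, Parp1 was at 25.2 and 23.8, at 38.4 and 23.4 and at 23.8 and 19.0 FPKM (392 to 2032 reads). These 6 libraries overlapped among themselves and lay above all of the other 10.

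Tnks (chr8:34826460-34965690, - strand), the only tankyrase gene in the table, was at 9.08 and 5.44 FPKM in the early 2-cell libraries and peaked at 11.3 and 11.8 FPKM in the late 2-cell controls (1095 and 733 reads). It was at 10.4 and 8.97 FPKM with FK866 and at 5.13 and 6.14 FPKM with FK866+NMN, the latter below both FK866 libraries. The columns headed late 2-cell TSA, late 2-cell Sirt1 and 4-cell control had 2.59 and 3.07, 0.591 and 1.29, and 2.99 and 1.63 FPKM. The single libraries had 2.74 FPKM in that headed 4-cell FK866 and 10.1 FPKM in that headed 4-cell FK866+NMN (191 and 1041 reads).

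Parp6 (chr9:59617284-59650285, + strand) was detected in all 16 libraries at a low level. Its highest values were 6.37 and 5.63 FPKM in the late 2-cell FK866+NMN libraries and 5.45 FPKM in the library headed 4-cell FK866. The late 2-cell controls had 1.92 and 3.87 FPKM, the early 2-cell libraries 2.76 and 1.03 FPKM, and the FK866 libraries 0.0575 and 1.96 FPKM, the first of them from 4 reads. The 7 libraries headed late 2-cell TSA, late 2-cell Sirt1, 4-cell control and 4-cell FK866+NMN ranged from 0.217 to 1.63 FPKM and overlapped those of late 2-cell FK866.

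The other 3 members were present in few libraries, so that the separated values matter more than the column sums. Parp3 (chr9:106470322-106476949, - strand) had 0 reads in 11 of 16 libraries. In each 2-library column that held it, the reads came from 1 library alone, with 62 reads in a late 2-cell control, 99 with FK866+NMN at the late 2-cell stage, 16 in the column headed late 2-cell Sirt1 and 43 in that headed 4-cell control. The single library headed 4-cell FK866+NMN had 55 reads of it, or 2.15 FPKM. Parp16 (chr9:65195353-65239224, + strand) had 0 reads in 10 of 16 libraries, including late 2-cell control library A, whereas library B of that control had 68 reads (4.20 FPKM). Both libraries held Parp16 only in the columns headed late 2-cell Sirt1, at 2.01 and 2.27 FPKM, and 4-cell control, at 1.79 and 0.887 FPKM, and that headed 4-cell FK866 held 2 reads. Parp11 (chr6:127446840-127494261, + strand) had 208 reads in all libraries together and was at 0 in 9 of 16 libraries. It was highest in the column headed 4-cell control at 0.804 FPKM. It was listed at 0 in the 6 libraries of the late 2-cell FK866, late 2-cell FK866+NMN, 4-cell FK866 and 4-cell FK866+NMN columns. Its level there is limited by depth, since 3 reads are worth at most 0.0912 FPKM in any of them. Counting error alone is covered by such limits, because amplified reads are not independent molecules.

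**Figure D1:**
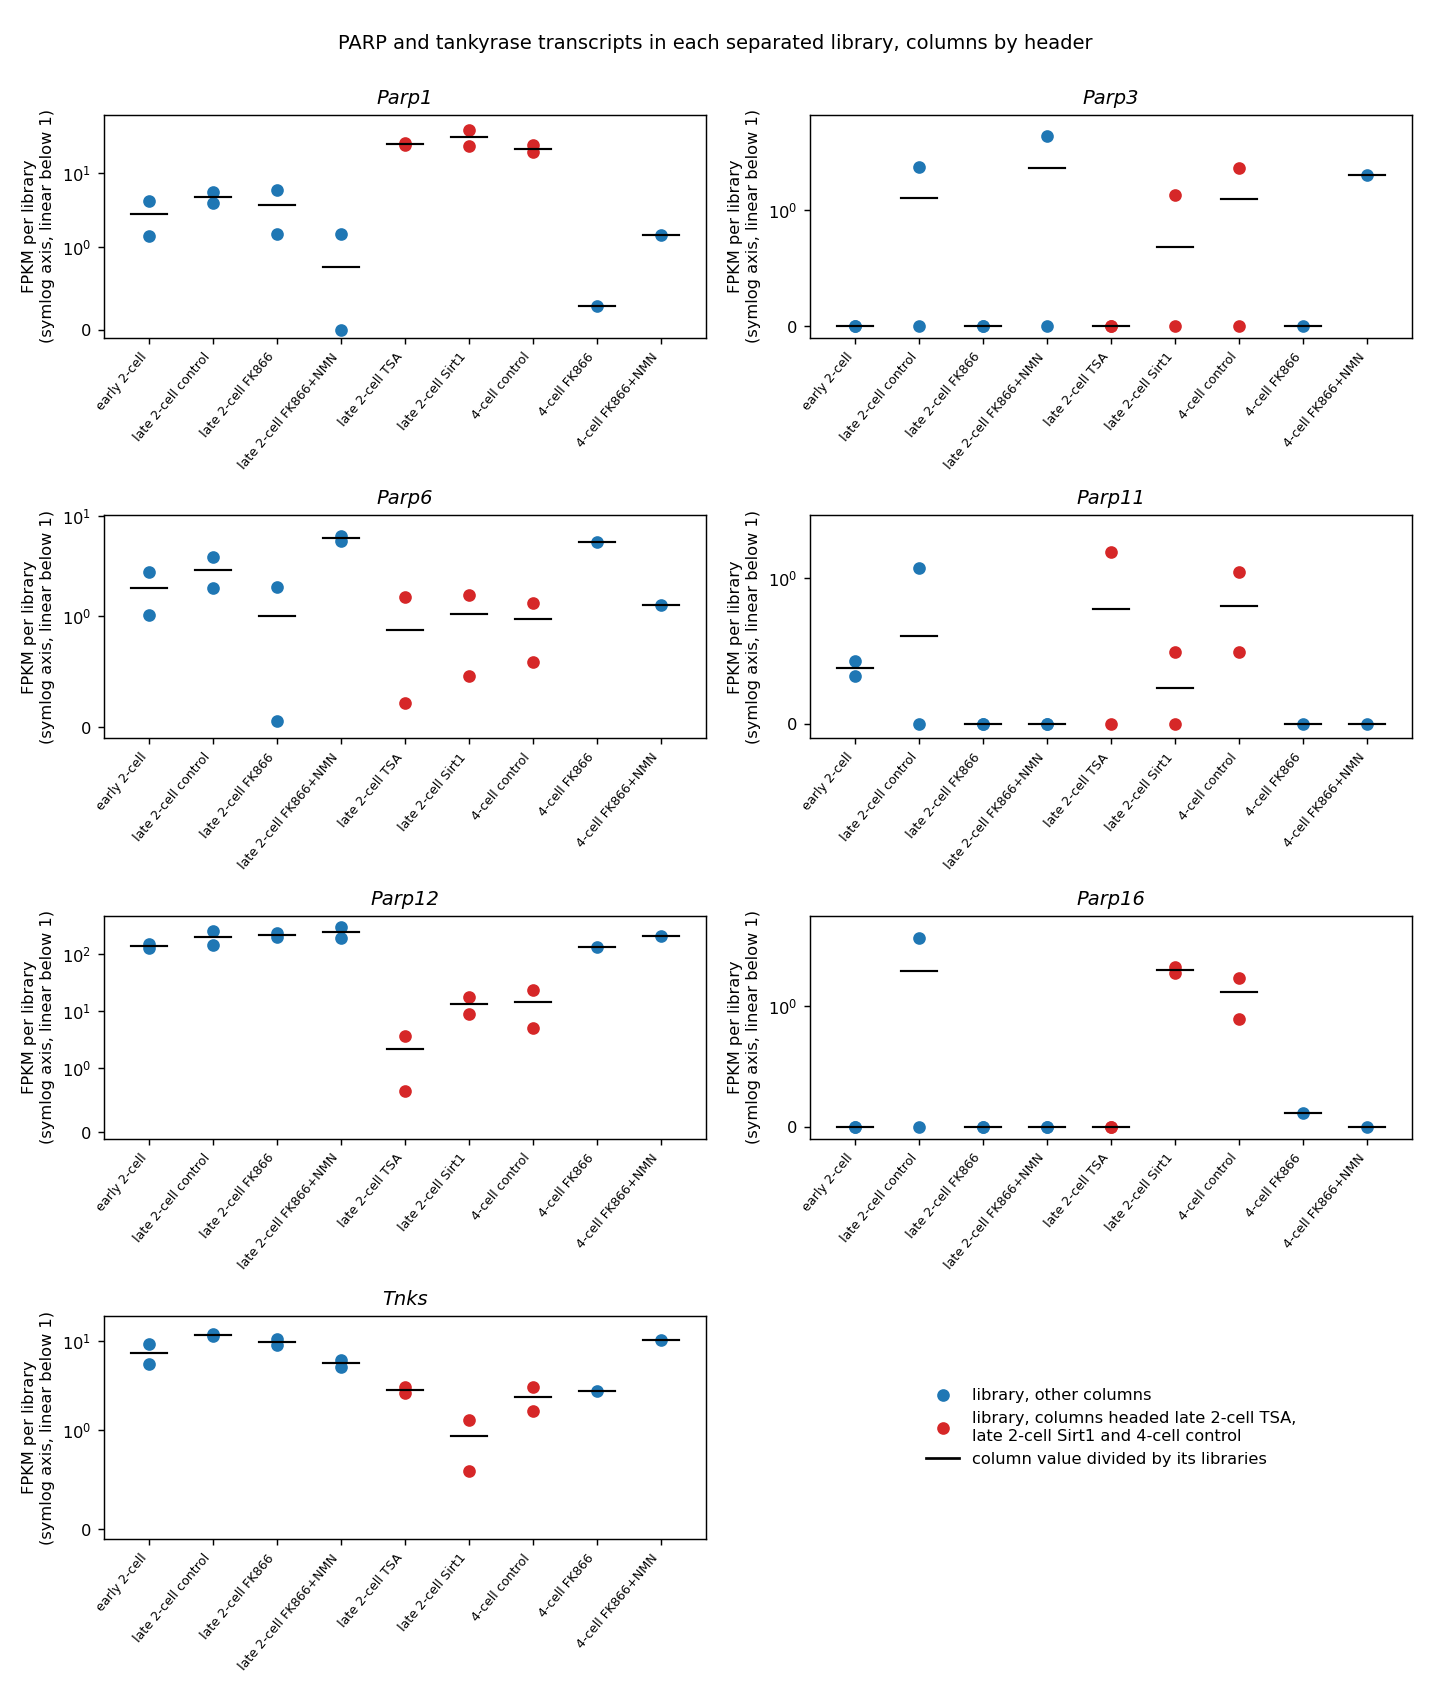
FPKM of each of the 7 genes (vertical axes, linear below 1 and logarithmic above) in the 16 separated libraries, grouped by the header of their column (horizontal axes); dots are libraries and bars are the column value divided by its number of libraries. Parp12 is at 126 FPKM or more in 10 libraries and at 23.6 FPKM or less in the 6 drawn in red, and Parp1 is at 19.0 FPKM or more in those 6 and at 5.86 FPKM or less in the others.

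FPKM is per length of exon, so the levels of different genes are set side by side here. Other differences in how well the transcripts of each gene were amplified and counted were not tested. Summed over all 7 genes, the columns held 31.2 to 250 FPKM per library. Tiparp, another gene of the family, is not in the sum and was at 370 FPKM in the late 2-cell control, against 196 FPKM for Parp12. Parp12 made up between 89.4% and 94.0% of that sum in 6 columns, but 6.96% in the column headed late 2-cell TSA, 26.9% in that headed late 2-cell Sirt1 and 33.8% in that headed 4-cell control. In those 3 columns Parp1, the DNA-break sensor, made up 78.6%, 62.8% and 50.5%, whereas its share elsewhere was at most 2.19%. The ratio of Parp12 to Parp1 within a library, which does not depend on how the libraries were scaled, was 24.9 to 459 in the 9 other libraries with Parp1 reads and 0.0274 to 0.991 in those 6. The share of Tnks stayed between 1.92% and 9.07%. Because FPKM is scaled to the mapped reads of each library, fewer transcripts of a gene per embryo and more transcripts of all other genes cannot be told apart.

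**Figure D2:**
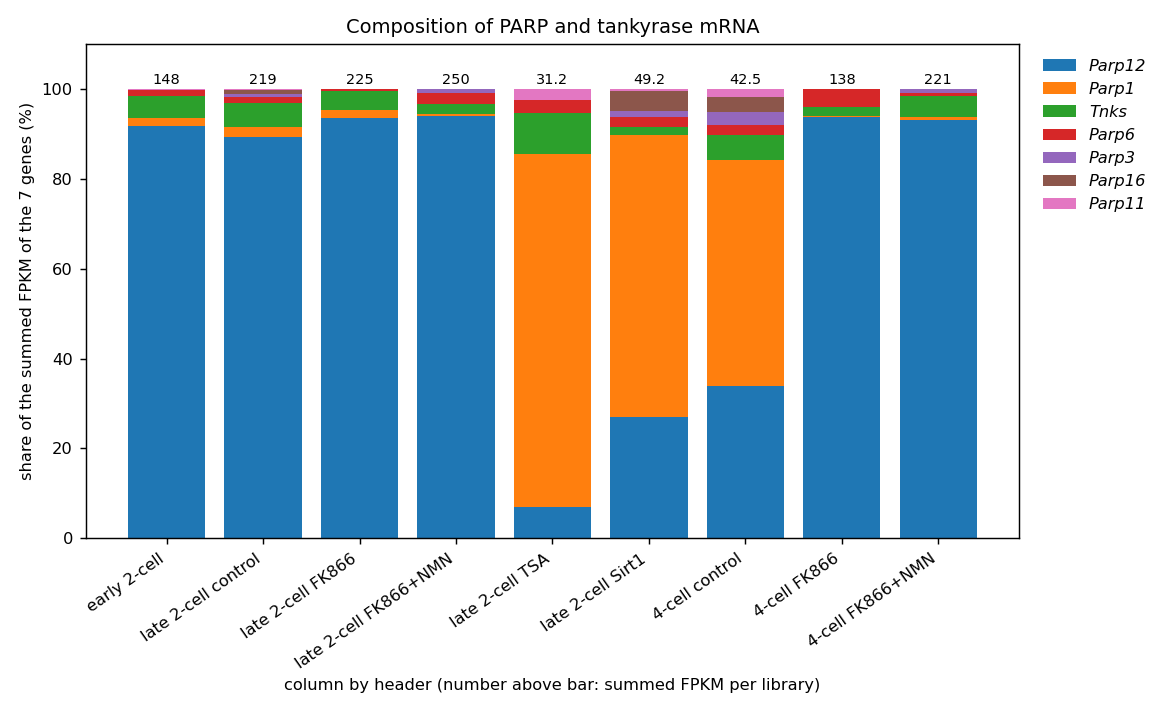
Share of each gene in the summed FPKM of the 7 genes (vertical axis, %) in each column by its header (horizontal axis), with the summed FPKM per library written above each bar. Parp12 fills 89.4% to 94.0% of 6 bars, and Parp1 fills 50.5% to 78.6% of the other 3. Tiparp, another gene of the family with a row, is not in the sum.

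The change from one stage to the next in control embryos was examined first. Differences are in log2 units after 1 FPKM was added to every level, so that changes of low genes appear smaller than they are. Only genes that reached 1 FPKM per library in either column were counted as past 2-fold. Tests are limma fits to all 16 separated libraries with Benjamini-Hochberg adjustment over all genes. The samples are not stated to be separate litters, so the p-values measure the spread between these libraries only. Between the early 2-cell and late 2-cell control columns, 2 of the 6 expressed members were past 2-fold (Parp3 and Parp16, both from 0 reads), beside 63.9% of all genes. By limma 0 of 6 passed, also at an unadjusted p under 0.05, beside 15.1% of all genes. The column values of Parp1, Parp6, Parp12 and Tnks were 0.43 to 0.61 log2 units higher at the late stage (adjusted p = 0.410 to 0.759, limma). Parp16 was detected in 1 of the 2 control libraries, with 68 reads. When the library without it was left out its log2 difference was 2.38. That leave-out also removes the spread of Parp16 between the control libraries, so it adds no support.

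Between the late 2-cell control and the column headed 4-cell control, Parp12 and Tnks fell. For Parp12 the libraries moved from 141 and 250 to 23.6 and 5.12 FPKM, a fitted log2 difference of -3.94 ± 0.70 (SE, adjusted p = 0.0112, limma). Tnks moved from 11.3 and 11.8 to 2.99 and 1.63 FPKM, or -1.95 ± 0.46 (adjusted p = 0.0348, limma). Parp1 was higher by 1.96 ± 0.67, with no overlap of libraries but an adjusted p of 0.125 (limma). In all, 3 of 6 members were past 2-fold, beside 58.0% of all genes, and 2 of 6 passed limma, beside 7.09% of all genes. Both calls rested on single libraries, while the differences kept their direction. Without late 2-cell control library B or 4-cell control library B the log2 difference of Parp12 was -3.53 or -2.94 (adjusted p = 0.0686 or 0.0704, limma). That of Tnks was -1.98 or -1.92 without late 2-cell control library A or B, and -1.65 without 4-cell control library B (adjusted p = 0.0591, 0.0744 and 0.123, limma). By the lists, the 4-cell control is the column headed late 2-cell TSA. The same pair of genes then fell, Parp12 with a log2 difference of -6.08 (adjusted p = 0.00103, limma), which held without any 1 library. Tnks fell with -1.72 (adjusted p = 0.0418, limma), a call that was lost without any 1 of the 4 libraries compared (-1.81 to -1.63, adjusted p = 0.0683 to 0.137, limma). Past 2-fold were 6 of 6 members, of which Parp1 alone was higher, beside 64.5% of all genes, and 2 of 6 passed limma, beside 11.5%. Under both readings the median difference of the members lay below that of all genes, at -0.69 against -0.21 by the headers and at -1.41 against -0.44 by the lists.

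FK866 withholds the NAD+ that these enzymes use, and at the late 2-cell stage no difference in their transcripts passed the test. Parp12 was at 229 and 192 FPKM with FK866 against 141 and 250 FPKM without, a log2 difference of 0.16 ± 0.70 (SE). Parp1 differed by -0.46 ± 0.67, Tnks by -0.23 ± 0.46 and Parp6 by -1.09 ± 0.69 (adjusted p = 0.649 to 1.00, limma). A 2-fold change of Parp12 or Parp1 would lie within 2 of these standard errors, so that it was not detectable here. Of the 6 expressed members 2 were past 2-fold (Parp3 and Parp16, at 0 reads in both FK866 libraries), beside 38.1% of all genes. None of 6 passed limma, at an adjusted or an unadjusted p under 0.05, beside 0.401% of all genes (7.83% unadjusted). Parp16 differed by -2.38 log2 units when the control library without it was left out, a value that rests on 68 reads of 1 library. That leave-out also removes the spread of Parp16 between the control libraries, so it adds no support.

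Adding NMN restores the substrate downstream of NAMPT, and the comparison with FK866 alone shares the FK866 column with the one above. At the late 2-cell stage Parp6 was higher with NMN, at 6.37 and 5.63 against 0.0575 and 1.96 FPKM, a log2 difference of 1.98 ± 0.69 with an unadjusted p of 0.0172 and an adjusted p of 0.208 (limma). Parp1, at 0 and 1.52 against 5.86 and 1.53 FPKM, differed by -1.39 ± 0.67 (adjusted p = 0.391, limma), while Parp12 differed by 0.13 ± 0.70. Past 2-fold were 3 of the 5 expressed members (Parp3 and Parp6 higher, Parp1 lower), beside 52.1% of all genes. None of 6 passed the adjusted threshold and 1, Parp6, an unadjusted p under 0.05, beside 2.08% and 13.3% of all genes (limma).

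Under TSA, Parp12 and Tnks fell by the headers, with the values given above for the same column, since the column headed late 2-cell TSA is the one the lists name as the 4-cell control. Past 2-fold were 6 of 6 members (Parp1 higher, the other 5 lower), beside 64.5% of all genes, and 2 of 6 passed limma, beside 11.5%. Parp1 was at 25.2 and 23.8 FPKM against 5.65 and 3.95 FPKM (log2 difference 2.15, adjusted p = 0.0689, limma). Among the leave-outs it passed only without a library of late 2-cell FK866+NMN, which is outside this comparison, with the same difference. It passed without none of the libraries compared. By the lists, TSA is the single library headed 4-cell FK866, whose spread had to be taken from the other groups. Parp12 was then at 130 FPKM against 141 and 250 FPKM (log2 difference -0.53 ± 0.86, adjusted p = 0.880, limma). Parp1 at 0.282 FPKM was on the other side of the control, at -2.16 ± 0.82 (adjusted p = 0.160, limma). Tnks was lower under both readings, by -1.72 ± 0.46 by the headers and by -1.75 ± 0.57 by the lists (adjusted p = 0.0418 and 0.101, limma). After quantile normalization the call of Tnks by the headers was lost (-1.18, adjusted p = 0.144, limma). By the lists Tnks passed after that normalization, at -2.30, and without either early 2-cell library, at -1.75. Past 2-fold by the lists were 4 of 6 members, all lower, beside 59.8% of all genes. By limma 0 of 6 passed (2 at an unadjusted p under 0.05, Parp1 and Tnks), beside 8.47% of all genes (20.7% unadjusted).

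In the column headed late 2-cell Sirt1, Parp12 fell from 141 and 250 to 17.6 and 8.92 FPKM (log2 difference -3.80 ± 0.70, adjusted p = 0.0104, limma). Tnks fell from 11.3 and 11.8 to 0.591 and 1.29 FPKM (-2.72 ± 0.46, adjusted p = 0.00767, limma). The call of Tnks held without any 1 library. That of Parp12 was lost without late 2-cell control library B or late 2-cell Sirt1 library B, at log2 differences of -3.39 and -3.35 (adjusted p = 0.0697 and 0.0700, limma). Parp1 had its highest level here, 38.4 and 23.4 FPKM, a difference of 2.43 ± 0.67 that missed the threshold narrowly (adjusted p = 0.0517, limma). Among the leave-outs it passed only without a library of late 2-cell FK866 or late 2-cell FK866+NMN, which are outside this comparison, with the difference still at 2.43. It passed without none of the libraries compared. Past 2-fold were 3 of 6 members, beside 60.9% of all genes, and 2 of 6 passed limma, beside 8.96%. By the lists, in which the Sirt1 embryos are the single library headed 4-cell FK866+NMN, Parp12 at 206 FPKM and Tnks at 10.1 FPKM differed from the control by 0.13 ± 0.86 and -0.17 ± 0.57, and Parp1 at 1.48 FPKM by -1.21 ± 0.82 (adjusted p = 0.853 to 1.00, limma). Past 2-fold were then 2 of 6 members, Parp1 and Parp16, both lower, beside 44.5% of all genes. By limma 0 of 6 passed, at an adjusted or an unadjusted p under 0.05, beside 0.964% of all genes (8.54% unadjusted).

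At the 4-cell stage, the comparison of FK866 with the control by the headers reversed the order of Parp1 and Parp12. Parp1 fell from 23.8 and 19.0 FPKM to 0.282 FPKM (log2 difference -4.12 ± 0.82, adjusted p = 0.00682, limma), and Parp12 rose from 23.6 and 5.12 to 130 FPKM (3.41 ± 0.86, adjusted p = 0.0201, limma). The FK866 side is 1 library with an assumed spread. The fall of Parp1 held without either control library, and the call of Parp12 was lost without 4-cell control library B (log2 difference 2.41, adjusted p = 0.0907, limma). Cyp19a1 moved with this comparison, from 0 to 8.12 FPKM, and its part in the result was not tested. Past 2-fold were 5 of 6 members (Parp6 and Parp12 higher, Parp1, Parp3 and Parp16 lower), beside 74.7% of all genes. In all 2 of 6 passed limma, beside 20.6% of all genes. By the lists, both columns are others. Parp1 then had 38.4 and 23.4 FPKM with FK866 and 25.2 and 23.8 FPKM without, a difference of 0.28 ± 0.67 (adjusted p = 1.00, limma). Parp12 had 17.6 and 8.92 against 3.69 and 0.652 FPKM, a difference of 2.29 ± 0.70 with an unadjusted p of 0.00885 and an adjusted p of 0.475 (limma). Parp16, at 2.01 and 2.27 FPKM with FK866, had 0 reads in both control libraries (adjusted p = 0.654, limma). Past 2-fold were 2 of the 5 expressed members, Parp12 and Parp16, both higher, beside 34.6% of all genes. By limma 0 of 6 passed (2, the same genes, at an unadjusted p under 0.05), beside 0.111% of all genes (5.82% unadjusted). Parp12 was thus the member that was higher with FK866 at the 4-cell stage under both readings with no overlap of libraries, and its call holds by the headers only.

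NMN added to FK866 at the 4-cell stage was compared last. By the headers the comparison is between single libraries, in which Tnks was at 10.1 against 2.74 FPKM (log2 difference 1.57 ± 0.66, unadjusted p = 0.0384, adjusted p = 0.232, limma), Parp6 at 1.29 against 5.45 FPKM and Parp12 at 206 against 130 FPKM. Past 2-fold were 3 of 5 members (Tnks and Parp3 higher, Parp6 lower), beside 59.7% of all genes. By limma 0 of 6 passed, with Tnks at an unadjusted p under 0.05, beside 6.62% of all genes (18.7% unadjusted). By the lists, 0 of 6 expressed members were past 2-fold, beside 26.3% of all genes. By limma 0 of 6 passed, at an adjusted or an unadjusted p under 0.05, beside 0.128% of all genes (3.61% unadjusted). The largest difference by the lists was that of Tnks, at 2.99 and 1.63 FPKM with NMN against 0.591 and 1.29 FPKM (0.76 ± 0.46, adjusted p = 1.00, limma), and Parp12 differed by -0.15 ± 0.70.

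**Figure D3:**
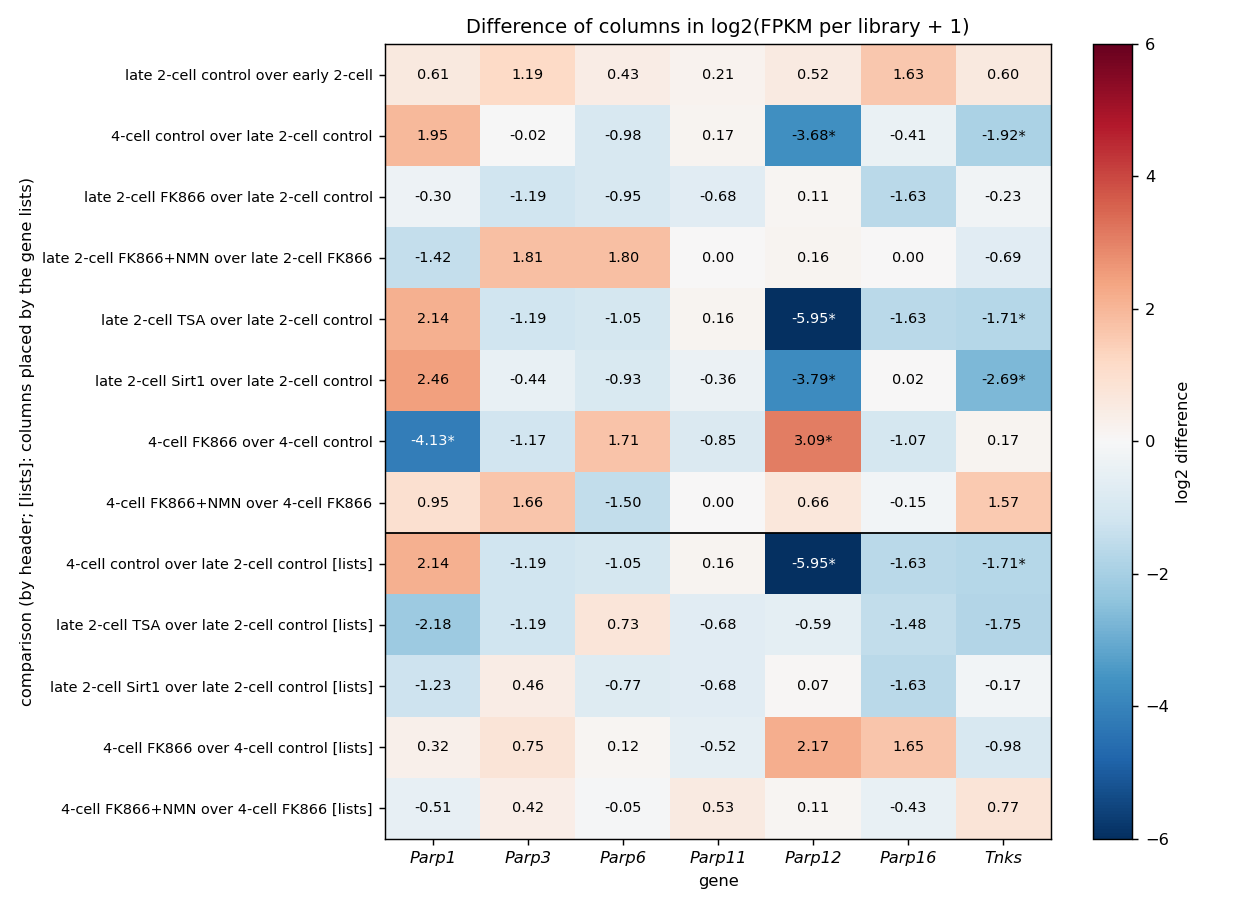
Difference of columns in log2(FPKM per library + 1) for the 7 genes (horizontal axis) in the 8 comparisons by header and, under the line, the 5 that change when columns are placed by the gene lists (vertical axis); colour and number give the difference, and a star marks an adjusted p under 0.05 (limma on the separated libraries). Parp12 ranges from -5.95 to 3.09, and by the lists stars remain in 1 comparison, for Parp12 and Tnks.

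Whether FK866 acted differently at the 4-cell stage than at the late 2-cell stage was tested as the difference of the 2 FK866 changes. By the headers it was -3.66 ± 1.05 for Parp1 (adjusted p = 0.0573, limma), 3.25 ± 1.11 for Parp12 (adjusted p = 0.101) and 2.82 ± 1.09 for Parp6 (adjusted p = 0.147), so that 0 of 6 members passed, beside 1186 of 11711 genes (limma). At an unadjusted p under 0.05 these were 3 of 6 members, beside 23.7% of all genes. By the lists it was 2.84 ± 0.87 for Parp16 (adjusted p = 0.370) and 2.13 ± 0.99 for Parp12 (adjusted p = 0.709, limma), and 0 of 11705 genes passed, 844 of them with an unadjusted p under 0.05, among which Parp16 was the only member.

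The other genes of ADP-ribosylation were read from lists of relatives, erasers and partners, of which 25 of 47 had rows. Of 9 other family members 2 had rows. Tiparp, a mono-ADP-ribosyltransferase induced by the aryl hydrocarbon receptor, was even more abundant than Parp12, at 370 FPKM in the late 2-cell control, 502 FPKM with FK866 and 645 FPKM with FK866+NMN. Like Parp12 it was low in the columns headed late 2-cell TSA (26.4 FPKM), late 2-cell Sirt1 (65.2 FPKM) and 4-cell control (63.8 FPKM). Against the late 2-cell control it fell in all 3 of these columns (adjusted p = 0.00119, 0.0104 and 0.0123, limma). By the lists the first of these is the 4-cell control, and the differences for TSA and the Sirt1 embryos were -1.39 and 0.14 (adjusted p = 0.171 and 1.00, limma). The antiviral Zc3hav1, whose enzyme domain is inactive, was at 0.43 to 6.73 FPKM and passed in no comparison.

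Hpf1, the factor that completes the active site of PARP1 and directs it to serine, had the pattern of Parp12 and not of Parp1. It was at 248 FPKM in the early 2-cell column and 200 FPKM in the late 2-cell control, against 12.4, 24.4 and 34.3 FPKM in the columns headed late 2-cell TSA, late 2-cell Sirt1 and 4-cell control (adjusted p = 0.000528, 0.00302 and 0.00763 against the late 2-cell control, limma). It was at 328 FPKM in that headed 4-cell FK866 (log2 difference 3.22 from the 4-cell control, adjusted p = 0.00174, limma), a value of 1 library. By the lists, Hpf1 fell in the 4-cell control, while it differed by 1.08 with FK866 at the 4-cell stage (adjusted p = 0.644, limma). For TSA and the Sirt1 embryos it differed by 0.71 and -0.30 from the late 2-cell control (adjusted p = 0.487 and 1.00, limma). The partner was thus lowest in the 3 columns in which the enzyme was highest. Of the 10 partners at DNA breaks with rows, 3 of the 9 tested fell from the early to the late 2-cell control, beside 15.1% of all genes called in either direction: Polb, the gap-filling polymerase, from 58.7 to 11.8 FPKM (adjusted p = 0.0182), Timeless, a replication fork protein that binds PARP1, from 23.9 to 1.92 FPKM (adjusted p = 0.0153), and Chd1l, a PARP-activated remodeler, from 1.96 to 0 FPKM (adjusted p = 0.0108, limma). Between late 2-cell FK866 and control embryos, 0 of 9 passed the adjusted threshold and 4 an unadjusted p under 0.05, beside 0.401% and 7.83% of all genes (limma). Polb (42.6 against 11.8 FPKM), Timeless (9.26 against 1.92 FPKM) and Chd1l (2.43 against 0 FPKM) were higher with FK866. Parpbp, which binds PARP1 and restrains recombination, was at 0 against 5.20 FPKM (adjusted p = 0.0639 to 0.561 for these 4 genes, limma). Past 2-fold with FK866, 3 of the 9 expressed partners were higher and 3 lower, beside 38.1% of all genes. The lower ones were Parpbp, Aptx (0.167 against 2.97 FPKM) and Lig1, so the list had no common direction. The FK866 and the stage comparison share the late 2-cell control column, so for Polb, Timeless and Chd1l their differences are not independent.

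Of the erasers, 4 of 10 had rows and 3 were tested. Macrod2, which removes single ADP-ribose units, fell from 24.8 FPKM in the early 2-cell column to 2.59 FPKM in the late 2-cell control (adjusted p = 0.00798, limma). Nudt5, which cleaves free ADP-ribose, was at 0.377 FPKM in the column headed late 2-cell TSA against 21.5 FPKM in the late 2-cell control (adjusted p = 0.0178, limma). By the lists that column is the 4-cell control, and Nudt5 with TSA differed by 0.24 from the late 2-cell control (adjusted p = 1.00, limma). Of 16 tankyrase partners and substrates 9 had rows and 8 were tested. Mcl1, an anti-apoptotic protein that binds tankyrase, rose from 1.97 to 111 FPKM between the early and the late 2-cell control (adjusted p = 0.000145, limma), and was at 212, 264 and 292 FPKM in the columns where Parp12 was low. Sh3bp2, the adaptor mutated in cherubism that tankyrase marks for degradation, was at 20.2 FPKM in the late 2-cell control and 1.25 FPKM in the column headed late 2-cell TSA (adjusted p = 0.0196, limma). With TSA by the lists it differed by 1.40 (adjusted p = 0.498, limma). Between late 2-cell FK866 and control embryos, 0 of 8 tankyrase partners and 0 of 3 erasers passed limma. The same held at an unadjusted p under 0.05, where 7.83% of all genes passed, and 0.401% passed the adjusted threshold. The eraser Adprs, not among those tested, was at 5.65 FPKM with FK866 against 19.4 FPKM, and at 10.0 FPKM with FK866+NMN. It was past 2-fold with FK866, beside 38.1% of all genes. By the headers Adprs was at 0.604 FPKM in 4-cell FK866 against 24.4 FPKM in the 4-cell control. By the lists it was at 44.0 against 7.85 FPKM. In that 4-cell comparison by the headers, whose FK866 side is 1 library, 2 of 4 expressed erasers were higher past 2-fold and 2 lower. Of 8 expressed tankyrase partners 3 were higher and 4 lower, beside 74.7% of all genes. Mcl1 was at 16.6 against 292 FPKM and Sh3bp2 at 53.9 against 5.92 FPKM. By the lists 2 of 3 erasers were higher and 0 lower, and of 6 partners 1 was higher and 1 lower, beside 34.6%.

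**Figure D4:**
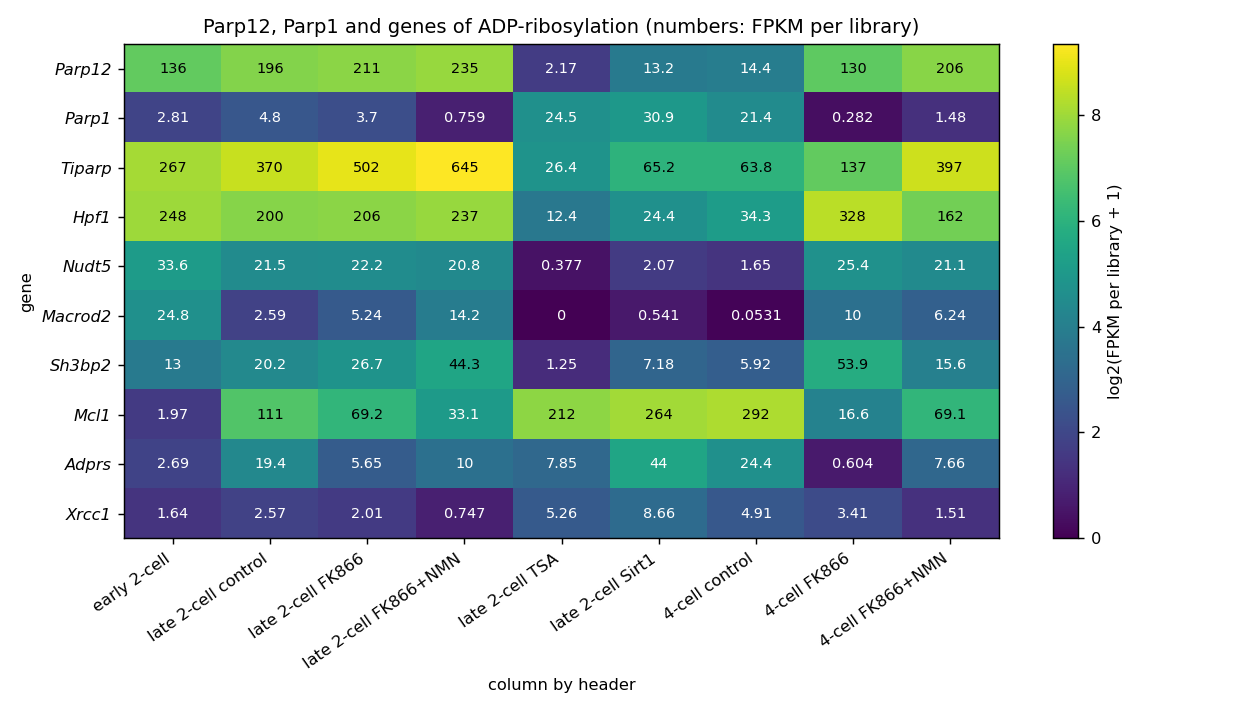
FPKM per library (numbers; colour is log2 of FPKM + 1) of Parp12, Parp1 and 8 other ADP-ribosylation genes, chosen for display after their values were seen (vertical axis), in the 9 columns by header (horizontal axis). Tiparp, Hpf1 and Nudt5 are lowest in the columns headed late 2-cell TSA, late 2-cell Sirt1 and 4-cell control, where Parp1 is highest.

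Across the 9 columns, the genes whose profile was most like that of a member were found by Pearson's r of log2(FPKM per library + 1) among 8072 genes that reached 5 FPKM per library. This is a description over 9 columns that share the split described above, so that many genes have a high r by position in it. Parp12 was closest to Oog3, an oocyte-expressed gene of the Pramel family (r = 0.993), Pld1 (r = 0.991) and Accsl (r = 0.988). Parp1 was closest to the spermidine synthase gene Srm (r = 0.989), Idh3b of the citric acid cycle (r = 0.982) and the ribosomal protein gene Rpl4 (r = 0.978). Tnks was closest to Prdm2 (r = 0.974), Ccp110 (r = 0.952) and Cnot6 (r = 0.924). Parp6 was closest to Dpysl5 (r = 0.966), Ankzf1 (r = 0.953) and Pcolce2 (r = 0.951). For the sparsely detected members the closest genes were Lmna for Parp3 (r = 0.897), Tmem167b for Parp11 (r = 0.937) and Gm13622 for Parp16 (r = 0.978).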

How the data were processed

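RNA-seq libraries of mouse embryos were analysed; the 24 H3K27ac CUT&Tag samples were not used here. Per the labels and methods, the authors ran Trim Galore, HISAT2 (genome mm10) and featureCounts in turn and deposited FPKM values, 1 column per group; the counting of strand, multiple alignments and the annotation version are not given in the sources used here. The table ended in an incomplete row, which was dropped, and 10 rows with a repeated symbol were left out. Read steps were recovered as FPKM times exon length (GENCODE M21, 15360 genes matched) over whole reads, which gave the library totals and reads of each library. A value is log2(FPKM per library + 1), with a minimum of 1 FPKM per library and a threshold of 2-fold. Tests are limma 3.58.1 with a trend in R 4.3.3 on 11637 to 11721 genes, adjusted p under 0.05; a lone library is assumed to vary like the other groups. Groups and columns were read from the headers, and again from the published gene lists, of which that for TSA is shortened. The text names the 7 members in every comparison, Sirt1, the members of the gene lists past 2-fold (at most 4 per list by size) and the 3 genes most like each member in profile; other names were chosen after their values were seen. Members and lists were chosen with earlier results of these data known. Promoter sequences are RefSeq's. Scripts were tested on simulated data. Alternatives were other pseudocounts, filters, centring, quantile normalization, a fit to the compared libraries alone and leaving out each library.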

Additional observations from a re-analysis of the deposited data

How the results depend on the processing

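No paired analysis was possible because the separated libraries carry no replicate number. Settings were another pseudocount, minimum, centring or column reading for the differences, and another pseudocount, normalization, set of libraries or column reading for limma.

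The number of members past 2-fold depended most on the pseudocount and the minimum. With a pseudocount of 5 FPKM it was 0 for late 2-cell control over early 2-cell (2 with 1 FPKM), 0 for late 2-cell FK866 over control (2), 0 for late 2-cell FK866+NMN over FK866 (3), 3 for TSA over control (6), 2 for 4-cell FK866 over control (5) and 0 for 4-cell FK866+NMN over FK866 (3). With a minimum of 5 FPKM it was 0, 0, 1, 3 and 3 for the first 5 of these. With columns assigned by the lists it was 6 for 4-cell control over late 2-cell control (3 by the headers), 2 for 4-cell FK866 over control and 0 for 4-cell FK866+NMN over FK866. Leaving out each library of the 2 compared columns in turn gave 1 to 3 for late 2-cell control over early 2-cell, 3 to 6 for 4-cell over late 2-cell control, 1 to 3 for late 2-cell FK866 over control and 3 to 5 for Sirt1 over control. Pseudocount 0.1 FPKM, no minimum and centring on the median gene kept the counts within 1.5 times.

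By limma, the number of members passing was 2 for 4-cell over late 2-cell control, TSA, Sirt1 and 4-cell FK866 over control each. With a pseudocount of 0.1 FPKM it was 1 for 4-cell over late 2-cell control and 1 for TSA, and after quantile normalization 1 for TSA. Fitted on the 2 compared columns alone it was 0 for 4-cell over late 2-cell control, 0 for TSA and 0 for Sirt1, where all genes passing also dropped to 0, 19 and 0; comparisons with a single library could not be fitted so. By the lists it was 0 for TSA, 0 for Sirt1 and 0 for 4-cell FK866. Leaving out each library of the 2 compared columns gave 0 to 1 for late 2-cell control over early 2-cell, 0 to 2 for 4-cell over late 2-cell control, 0 to 1 for late 2-cell FK866, 1 to 2 for TSA, 1 to 2 for Sirt1 and 1 to 2 for 4-cell FK866. Without a library of another column Parp1 was gained for TSA and Sirt1, and Parp16 for 4-cell FK866. Leaving out a library of the compared columns gained Parp1 in neither. Parp16 had 0 and 68 reads in the late 2-cell control libraries, and its gain came from dropping either, which removes that spread from the fit.

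The column reading changed the sign of 12 of 35 differences of members, 7 of them past 2-fold by the headers. For these 7, the log2 difference by the lists was -2.18 for Parp1 and 0.73 for Parp6 under TSA, -1.23 for Parp1 and 0.073 for Parp12 in Sirt1 embryos, and 0.32 for Parp1, 0.75 for Parp3 and 1.65 for Parp16 under FK866 at the 4-cell stage. No other setting reversed a member that was past 2-fold. Over all genes, a pseudocount of 5 FPKM lowered the genes past 2-fold from 6075 to 3018 between the 2-cell stages and from 3436 to 986 with FK866 at the late 2-cell stage, and limma called 47 genes there, 21 after quantile normalization and 287 to 363 when 1 library of the comparison was left out. By the lists, the genes called with FK866 at the 4-cell stage were 13 in place of 2419. The cause of these shifts was not tested, and members at 0 reads in most libraries (Parp3, Parp11 and Parp16) are limited by depth.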
